A study of Mus musculus with 4 samples.

Results

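The 10 enzymes described here make serine from glucose carbon and pass its 1-carbon unit through folate in the mitochondria and in the cytosol. They are a list of named genes: Phgdh, Psat1 and Psph of serine synthesis, Shmt2, Mthfd1l, Mthfd2 and Aldh1l2 of the mitochondrial folate pathway, and Shmt1, Mthfd1 and Aldh1l1 of the cytosolic one. The array carried 15 probes for these 10 genes, out of 55666 probes and 20138 named genes. Of these, 12 probes for 9 genes were bright enough to be tested, out of 24973 probes and 12788 named genes. Both Mthfd1l probes were left out by that filter, so the mitochondrial enzymes are represented by 3 of 4 genes.

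The serine synthesis pathway branches from glycolysis at 3-phosphoglycerate, which Phgdh oxidises, Psat1 aminates and Psph dephosphorylates to serine. Serine hydroxymethyltransferases then split serine into glycine and a 1-carbon unit on tetrahydrofolate, which the Mthfd enzymes convert to formyl-folate and formate and the Aldh1l enzymes oxidise to carbon dioxide with formation of NADPH. Several of these genes, Phgdh, Psat1, Shmt2 and Mthfd2 among them, are known targets of ATF4, the transcription factor of the integrated stress response (ISR), in which phosphorylation of eIF2α lowers general translation while ATF4 mRNA is still translated.

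The arrays address what an acute ISR in fat does to the transcripts of brown adipose tissue (BAT). All 4 mice were 8-week-old males carrying maP2-Fv2E-PERK (the Tg mice), in which the kinase part of PERK, which phosphorylates eIF2α, is joined to a module that a drug can pair up. The aP2 promoter of Fabp4, from mouse, drives it. They received an intraperitoneal injection of the dimeriser AP20187 (AP, n = 2) or of vehicle (n = 2), and BAT was taken 12 h later for 1-colour Agilent arrays. The labels give the AP dose as 1 ng/g and the study's legend as 0.05 mg/kg, which differ. The strain is not given in the labels, and the study's methods name C57/BL6N as the strain in which the Tg line was made. No mouse without the transgene was on these arrays, so an effect of AP itself cannot be told apart from that of the dimerised kinase. The aP2 promoter is also active in monocytes and macrophages, and the tissue was taken whole, so fewer cells of a type and less RNA per cell cannot be told apart. The labels do not say what the replicate numbers mark, and p-values measure only the spread between these 4 samples.

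A level below is the log2 of a probe's signal after division by the 75th percentile of its array, and levels of different probes were not compared with each other, beyond naming the probe of a marker list that was brightest by its mean over the 4 arrays. A log2 fold change is AP minus vehicle. That percentile was at a signal of 119 and 159 on the vehicle arrays and 128 and 118 on the AP arrays. Between 46.4% and 49.0% of spots were well above background on an array, and no spot was saturated. With 2 mice a group, an exact permutation test cannot give a two-sided p below 0.333.

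All 8 markers of brown adipocytes passed the filter on dim probes. The level of Ucp1, the uncoupling protein of brown fat, was 10.41 and 9.66 with vehicle and 9.66 and 10.25 with AP. Of the 8, 7 overlapped between the groups. The exception was Adrb3, the beta-adrenergic receptor of fat, at 6.80 and 6.70 with vehicle and 5.33 and 5.77 with AP (log2 fold change -1.20 ± 0.25 SE, limma adjusted p = 0.800). Elovl3, a fatty acid elongase, differed most between the vehicle-treated mice, at 6.08 and -1.07, and was 3.52 and 5.76 with AP. Vehicle replicates 1 and 2 stood apart from the other arrays in markers of other tissues. All 8 skeletal muscle markers were highest in vehicle replicate 2 and lowest in vehicle replicate 1, and their summed signal was 39.4 and 752 with vehicle and 483 and 258 with AP, in multiples of the 75th percentile. The 4 lymphocyte and antigen presentation markers that were tested were also highest in vehicle replicate 2. Values without a given mouse therefore follow below for enzymes and pathway genes where the value moved far.

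The treatment was checked on Trib3, a pseudokinase induced through ATF4 and CHOP, whose levels were 2.78 and 2.33 with vehicle and 6.26 and 8.01 with AP. Ddit3, which encodes CHOP, had levels of 2.18 and 1.86 with vehicle and 3.03 and 4.22 with AP. The log2 fold changes were 4.57 ± 0.63 (SE) for Trib3, with rank 1 by fold change and rank 12 by p among the 12788 genes, and 1.61 ± 0.45 (SE) for Ddit3, which was 1.01 without AP replicate 2. The groups did not overlap in either gene, and AP replicate 2 was above AP replicate 1 in both. Atf4 overlapped between the groups, at 7.49 and 6.12 with vehicle and 7.26 and 8.23 with AP. None of the 24973 probes passed an adjusted p of 0.05 (limma with Benjamini-Hochberg adjustment), and 1515 (6.07%) were below 0.05 before adjustment. The test named in the study's methods gave 0 and 1478.

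No enzyme of the 10 passed the adjusted test, where the background was 0.0% of the named genes. Mthfd2 and Aldh1l2, both mitochondrial, were the 2 of 9 tested genes in which both AP-treated mice lay above the vehicle pair, where 20.1% of all named genes did so. Aldh1l2 was above background on 1 of 2 vehicle arrays and entered the test only through the AP arrays, and with probes above background on all arrays the count was 1, so the count of 2 is a description. None of the 9 had both AP-treated mice below, where 17.3% of named genes did, but Mthfd1 did with quantile normalization and in the authors' log2 table. Before adjustment, Aldh1l2 was the 1 of 9 that was higher at 0.05 with AP, where 3.78% of named genes were, and nothing is read from it for the same reason. Of the 9, 0 were lower, where 2.26% of named genes were. The median log2 fold change was 0.27 over the 9 genes and 0.011 over all 12788, and it was above 0 in 7 of the 9 and in 51.4% of all named genes. Without AP replicate 2 it was above 0 in 4 of the 9, and the median was -0.092.

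**Figure D1:**
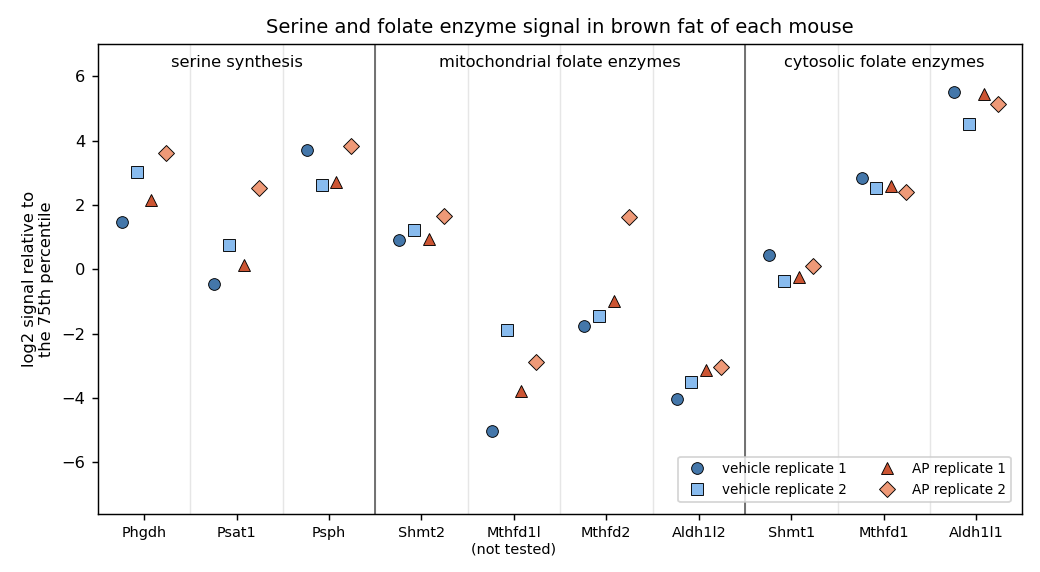
Level of each enzyme in each of the 4 mice (y axis, log2 signal after division by the array's 75th percentile), with 1 column per gene and 1 symbol per mouse. In Mthfd2 and Aldh1l2 both AP-treated mice lie above the vehicle pair, but in each enzyme except Aldh1l2, and so also in Mthfd2, mice of 1 group lie further apart than the group means.

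In serine synthesis, the first 2 enzymes had the same order of mice. Phgdh, the dehydrogenase of the first step (probe A_55_P2046262), had levels of 1.48 and 3.01 with vehicle and 2.15 and 3.62 with AP. The groups overlapped, and the gap between the vehicle-treated mice was larger than the difference between the group means, 2.25 ± 1.09 and 2.88 ± 1.04 (SD, n = 2 each). The log2 fold change was 0.64 ± 0.73 (SE, 95% interval -1.30 to 2.58, limma adjusted p = 0.869). It was -0.13 without vehicle replicate 1, -0.095 without AP replicate 2, 1.41 without vehicle replicate 2 and 1.37 without AP replicate 1. The other Phgdh probe, A_55_P2143041, had the same order, with levels of 1.22 and 2.81 with vehicle and 2.02 and 3.44 with AP.

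Psat1, the aminotransferase of the next step (probe A_55_P2052290), had levels of -0.46 and 0.74 with vehicle and 0.14 and 2.53 with AP. AP replicate 2 stood well above the rest and AP replicate 1 lay between the vehicle-treated mice. The group means were 0.14 ± 0.85 and 1.34 ± 1.69 (SD, n = 2 each), and the log2 fold change was 1.20 ± 0.91 (SE, 2.29-fold, 95% interval -1.20 to 3.60, limma adjusted p = 0.822). Without AP replicate 2 it was 0.0066, without AP replicate 1 it was 2.39, without vehicle replicate 1 it was 0.60 and without vehicle replicate 2 it was 1.80. A dimmer Psat1 probe that was not tested, A_66_P121495, had levels of -4.45 and -3.24 with vehicle and -3.81 and -1.28 with AP, the same order again.

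Psph, the phosphatase of the last step (probe A_55_P2069350), had a different pattern, with levels of 3.71 and 2.61 with vehicle and 2.70 and 3.82 with AP. One mouse of each group was high and the other low, so the groups overlapped almost entirely. The log2 fold change was 0.098 ± 0.56 (SE, 95% interval -1.37 to 1.57, limma adjusted p = 0.980), and the other probe, A_66_P139876, gave 0.16. It was -0.45 without vehicle replicate 2 and -0.46 without AP replicate 2, against 0.64 without vehicle replicate 1 and 0.66 without AP replicate 1.

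Among the mitochondrial enzymes, Mthfd2 had the largest difference. Mthfd2, the dehydrogenase and cyclohydrolase that oxidises methylene-folate in the matrix (probe A_52_P184149), had levels of -1.77 and -1.46 with vehicle and -0.98 and 1.61 with AP. The groups did not overlap, but AP replicate 1 was close to the vehicle-treated mice and AP replicate 2 far above. The group means were -1.62 ± 0.22 and 0.31 ± 1.83 (SD, n = 2 each). The log2 fold change was 1.93 ± 0.89 (SE, 3.81-fold, 95% interval -0.42 to 4.28, limma adjusted p = 0.800, exact permutation p = 0.333). It had rank 41 of 12788 genes from the highest fold change and rank 1373 by p. It stayed above 0 with any 1 mouse left out, at 1.77 without vehicle replicate 1 and 2.09 without vehicle replicate 2, but moved to 3.23 without AP replicate 1 and 0.63 without AP replicate 2. With normexp background correction it was 1.07.

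Aldh1l2, the mitochondrial formyl-folate dehydrogenase (probe A_52_P498193), had a dim signal with levels of -4.02 and -3.52 with vehicle and -3.13 and -3.03 with AP. The groups did not overlap and the AP-treated mice were close together. It was well above background on 1 of 2 vehicle arrays and on both AP arrays, so it entered the test only through the AP-treated group. The group means were -3.77 ± 0.35 and -3.08 ± 0.073 (SD, n = 2 each), and the log2 fold change was 0.69 ± 0.26 (SE, 95% interval 0.0039 to 1.38, limma adjusted p = 0.800, exact permutation p = 0.333). With a mouse left out it ranged from 0.44 (without vehicle replicate 1) to 0.94 (without vehicle replicate 2). With normexp background correction, in which the local background is subtracted and the remaining background is modelled, it was 0.24. That alternative also used an offset of 50 and the median spot signal, and which of these moved the value was not tested.

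Shmt2, the mitochondrial serine hydroxymethyltransferase (probe A_51_P313761), had levels of 0.91 and 1.22 with vehicle and 0.94 and 1.65 with AP. The groups overlapped, in the same order of mice as Phgdh and Psat1. The log2 fold change was 0.23 ± 0.33 (SE, 95% interval -0.63 to 1.09, limma adjusted p = 0.892). It was -0.13 without AP replicate 2, 0.074 with normexp background correction and 0.071 in the authors' log2 table. Mthfd1l, the mitochondrial formyl-folate synthetase that releases formate, was well above background by probe A_52_P167278 only in vehicle replicate 2 and AP replicate 2, with levels of -5.03 and -1.88 with vehicle and -3.78 and -2.88 with AP. By probe A_55_P2000280 it was above background only in vehicle replicate 2, with levels of -5.49 and -3.36 with vehicle and -5.55 and -5.14 with AP. Vehicle replicate 2 was the highest mouse on both. In a fit without the filter on dim probes, the log2 fold changes were 0.13 ± 1.13 and -0.92 ± 0.76 (SE, limma adjusted p = 0.965 and 0.888), from levels of which most were not well above background.

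At these levels the groups overlapped in all 3 cytosolic enzymes, Mthfd1 being the one that separated under the alternatives named above, which kept all mice. Without vehicle replicate 2, all 3 lay below the remaining vehicle-treated mouse in both AP-treated mice, where 37.0% of named genes did. A lone mouse makes separation easier, so nothing is read from it. Aldh1l1, the cytosolic formyl-folate dehydrogenase (probe A_55_P1983733), had levels of 5.51 and 4.52 with vehicle and 5.44 and 5.14 with AP. Both AP-treated mice lay between the vehicle-treated mice, and the log2 fold change was 0.27 ± 0.40 (SE, 95% interval -0.77 to 1.32, limma adjusted p = 0.896). It was -0.22 without vehicle replicate 2. Mthfd1, the trifunctional cytosolic enzyme (probe A_51_P392928), had levels of 2.82 and 2.54 with vehicle and 2.59 and 2.41 with AP. The groups overlapped within a narrow range, and the log2 fold change was -0.18 ± 0.23 (SE, 95% interval -0.78 to 0.42, limma adjusted p = 0.878), with -0.042 without vehicle replicate 1 and -0.32 without vehicle replicate 2. Shmt1, the cytosolic serine hydroxymethyltransferase (probe A_52_P673499), had levels of 0.45 and -0.37 with vehicle and -0.23 and 0.10 with AP. The groups overlapped, the log2 fold change was -0.10 ± 0.35 (SE, 95% interval -1.04 to 0.83, limma adjusted p = 0.961), and the second probe, A_55_P2186584, gave -0.093. It was 0.30 without vehicle replicate 1 and 0.063 without AP replicate 1. These intervals still hold changes of either sign, so the fits do not show that the cytosolic transcripts were the same in both groups.

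**Figure D2:**
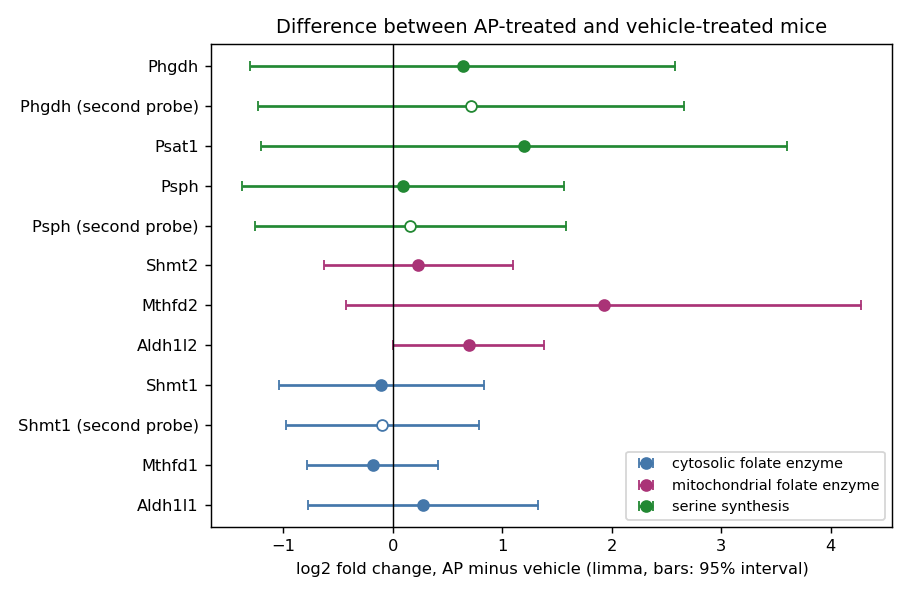
Log2 fold change, AP minus vehicle, on the x axis for each of the 12 tested probes, with 95% intervals from limma as bars, filled symbols for the brightest probe of a gene and open symbols for a second probe. The interval of Mthfd2 is centred highest, at 1.93, and that of Aldh1l2, which was above background on 1 of 2 vehicle arrays, runs from 0.0039 to 1.38.

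To set the compartments side by side, each gene's level was centred on its mean over the 4 mice and averaged over the 3 tested enzymes. Aldh1l2, one of the mitochondrial ones, had passed the filter only through the AP arrays. The mitochondrial mean was -0.66 and -0.29 with vehicle and -0.093 and 1.04 with AP, a change of 0.95. The cytosolic mean was 0.35 and -0.35 with vehicle and 0.023 and -0.027 with AP, a change of -0.0038. The difference of the 2 means was -1.01 and 0.057 with vehicle and -0.12 and 1.07 with AP. The change of that difference was 0.96, and the groups overlapped, because vehicle replicate 2 lay above AP replicate 1. It was 0.42 without vehicle replicate 1, 1.49 without vehicle replicate 2, 1.55 without AP replicate 1, 0.36 without AP replicate 2 and 0.46 with normexp background correction. With probes above background on all arrays, which leaves 2 mitochondrial enzymes without Aldh1l2, it was 1.08, and without the filter, which adds Mthfd1l, it was 0.75.

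Each mitochondrial enzyme was also set against its cytosolic counterpart, which made 3 comparisons. Mthfd2 minus Mthfd1, centred on the 4 mice, was -1.35 and -0.76 with vehicle and -0.33 and 2.44 with AP. The groups did not overlap, and the change was 2.11 (exact permutation test, two-sided, p = 0.333, adjusted over the 3 comparisons p = 1.0), with 0.72 without AP replicate 2 and 3.50 without AP replicate 1. Shmt2 minus Shmt1 was -0.73 and 0.39 with vehicle and -0.024 and 0.36 with AP, and Aldh1l2 minus Aldh1l1 was -0.95 and 0.54 with vehicle and 0.0051 and 0.41 with AP. The last pair is a description only, because Aldh1l2 had entered through the AP-treated group. The groups overlapped in both, with changes of 0.34 and 0.42 (exact permutation p = 1.0 each) that were -0.23 and -0.33 without vehicle replicate 1. The test could not have passed 0.05 in any of the 3.

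**Figure D3:**
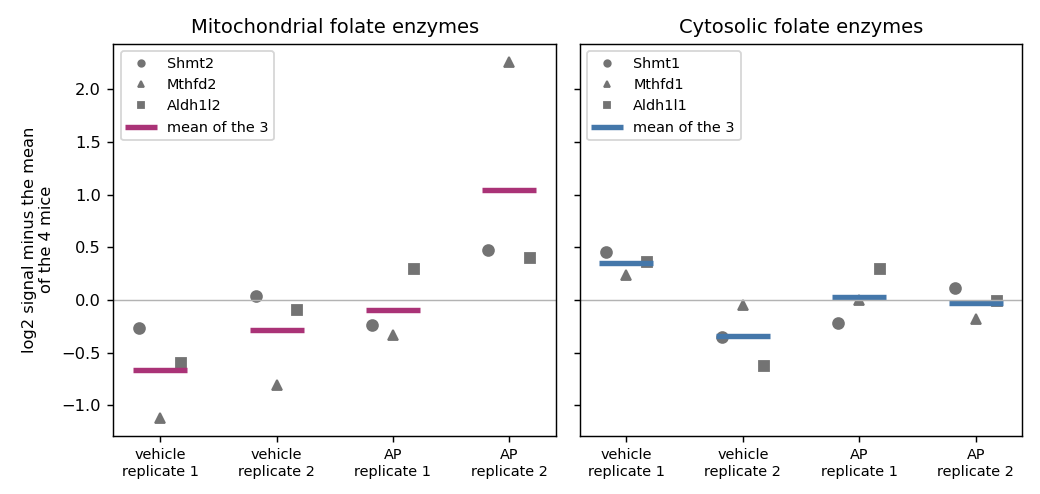
Levels of the 3 tested mitochondrial enzymes (left) and the 3 cytosolic enzymes (right) in each mouse, as log2 signal minus the gene's mean over the 4 mice on the y axis, with the mean of the 3 as a horizontal bar. The mitochondrial mean reaches 1.04 in AP replicate 2, mainly through Mthfd2, while the cytosolic mean stays between -0.35 and 0.35.

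Mice of 1 group also differed from each other. AP replicate 2 was above AP replicate 1 in 7 of the 9 enzymes, with a median difference of 0.72, where 6240 of the 12788 genes were and the median was -0.012. The exceptions were Mthfd1 and Aldh1l1. Trib3, Ddit3 and Atf4 were also higher in AP replicate 2 than in AP replicate 1. Vehicle replicate 2 was above vehicle replicate 1 in 5 of the 9, all of them Phgdh, Psat1 or mitochondrial enzymes, with a median difference of 0.31 over the 9, where 5166 of the 12788 genes were and the median was -0.10.

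The promoters are shown for 2 pairs. Phgdh and Psat1 had the same order of mice, and Mthfd2 and Mthfd1 were the counterparts furthest apart. RefSeq promoter windows on GRCm38.p6 (250 bases before to 50 after the start) were matched for 9 of the 10 genes, and the 120 bases before the start are printed 5′ to 3′ on the gene's strand, for Psat1 from the first of its 2 windows. Capitals mark CCAAT, the core of the site read by NF-Y, or its reverse complement ATTGG.
Phgdh, chr3:98339970-98340089, minus strand: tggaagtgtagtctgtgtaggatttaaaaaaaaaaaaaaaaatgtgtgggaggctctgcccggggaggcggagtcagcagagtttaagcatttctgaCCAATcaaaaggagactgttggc
Psat1, chr19:15925060-15925179, minus strand: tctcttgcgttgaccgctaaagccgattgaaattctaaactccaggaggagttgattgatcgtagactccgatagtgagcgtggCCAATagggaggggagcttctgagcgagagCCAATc
Mthfd2, chr6:83317605-83317724, minus strand: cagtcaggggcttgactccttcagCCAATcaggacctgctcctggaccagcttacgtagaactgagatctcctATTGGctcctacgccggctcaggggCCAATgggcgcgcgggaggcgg
Mthfd1, chr12:76255112-76255231, plus strand: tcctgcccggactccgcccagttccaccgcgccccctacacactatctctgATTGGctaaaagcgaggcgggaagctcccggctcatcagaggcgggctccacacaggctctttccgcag
Mthfd2 held 3 such matches in the stretch shown, Psat1 2, and Phgdh and Mthfd1 1 each. Over the 300-base windows on both strands, CCAAT was found in 7 of the 10 member windows, those of Shmt2 and Mthfd1l and the second of Psat1 lacking it, and in 37.4% of all 32851 windows. TGATGNAA, the core of the C/EBP-ATF response element bound by ATF4, was found on either strand in 0 of the 10 member windows and in 3.97% of all windows. A match describes letters in this window only, and no match says only that these letters are not in it. The motifs cannot overlap in the member windows, as none of these held TGATGNAA.

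The rest of the pathway was described from 5 lists with 42 genes, of which 32 were tested. Both AP-treated mice lay above both vehicle-treated mice in 9 of the 32 and below in 7, where 20.1% and 17.3% of all named genes did. The median log2 fold change was 0.039, and with a mouse left out it ranged from -0.095 (without vehicle replicate 2) to 0.23 (without vehicle replicate 1). Before adjustment in limma, 1 gene in each direction (Cbs and Folr1) was below 0.05, where 3.78% of named genes were higher and 2.26% lower. None passed the adjusted test. A lone mouse in a group makes separation easier, so counts with a mouse left out are read beside the share of all named genes. Without vehicle replicate 1, 20 of the 32 lay above, where 42.1% of named genes did, and with each other mouse left out 12 or 13 did, where 32.7% to 34.5% did. Without vehicle replicate 2, 16 lay below, where 37.0% of named genes did.

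Among genes of folate uptake, storage and transport, 8 of 8 were tested, 2 lay above (Fpgs and Sfxn1, a mitochondrial serine transporter) and 4 below (Slc19a1, Slc46a1, Folr1 and Folr2), beside 20.1% and 17.3% of all named genes. Folr1, a folate receptor, had levels of -2.20 and -2.11 with vehicle and -3.19 and -2.81 with AP. The groups did not overlap, at a log2 fold change of -0.85 ± 0.24 (SE, limma adjusted p = 0.800). Folr2, another receptor, which resident macrophages carry, had levels of 0.16 and 0.59 with vehicle and 0.068 and -0.12 with AP, and the macrophage list is given below. Slc19a1, the reduced folate carrier, had levels of 4.68 and 4.10 with vehicle and 3.64 and 4.06 with AP, with the last of these just below the lower vehicle-treated mouse. Its second probe overlapped, at a log2 fold change of -0.24, and those of Slc46a1 and Sfxn1 separated like the first, at -0.43 and 0.47. The log2 fold changes of Folr2 and Slc19a1 were -0.41 and -0.54, with -0.19 for Folr2 without vehicle replicate 2 and -0.25 for Slc19a1 without vehicle replicate 1. Fpgs, which adds the glutamate tail that keeps folate in the cell, had levels of 0.54 and 0.71 with vehicle and 0.89 and 1.27 with AP, which gave 0.46, or 0.26 without AP replicate 2.

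Of the other enzymes that use or make 1-carbon folates 9 of 11 were tested, with 2 above and 2 below, beside 20.1% and 17.3% of all named genes. Gart, a purine synthesis enzyme that takes up formyl-folate, had levels of 0.90 and 0.62 with vehicle and 1.23 and 1.30 with AP. Tyms, which uses methylene-folate to make thymidylate, had levels of -1.88 and -2.14 with vehicle and -2.46 and -2.55 with AP. The log2 fold changes of Gart and Tyms were 0.50 and -0.49, and that of Mtr, methionine synthase, was 0.48 with overlapping groups and 0.057 without AP replicate 2. Mthfd2l, the isozyme of Mthfd2, had a log2 fold change of -0.088 and is given beside Mthfd2, outside the rule by which other genes are named. Ftcd and Mtrr were not well above background.

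In the glycine cleavage list 4 of 6 were tested, with 0 above and 1 below, beside 20.1% and 17.3% of all named genes. Gldc, the glycine decarboxylase, had levels of -2.62 and -1.27 with vehicle and -3.09 and -2.80 with AP, at a log2 fold change of -1.00 ± 0.50 (SE). Both AP-treated mice were below, and vehicle replicate 2 was far above the rest, so that the log2 fold change was -0.32 without it and -1.68 without vehicle replicate 1. Gcsh, Sardh and Dld overlapped, with log2 fold changes of -0.14, 0.11 and 0.0007. Without vehicle replicate 1 and without vehicle replicate 2, Gcsh was -0.013 and -0.27 and Dld was 0.23 and -0.23, and Sardh was 0.049 without AP replicate 2. Of the other Gcsh probes, A_55_P2018549 lay below at -0.24 and A_66_P102250 overlapped at -0.41. Dmgdh was not well above background, and Amt, above it on AP replicate 2 only, was not tested. Of the other serine and glycine enzymes 6 of 10 were tested, with 2 above and 0 below, beside 20.1% and 17.3% of all named genes. The 2 were Sptlc1 and Sptlc2, which join serine to palmitoyl-CoA in sphingolipid synthesis, at log2 fold changes of 0.43 and 0.23. Srr, serine racemase, and Sdsl overlapped at 0.37 and -0.14, with 0.10 for Srr without vehicle replicate 2 and 0.099 for Sdsl without vehicle replicate 1. Among second probes, that of Sptlc2 (A_52_P59916) overlapped at 0.090 and that of Srr (A_52_P30920) lay above at 0.49. Sds, Tdh, Agxt and Sptlc3 were not well above background.

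The methionine cycle and transsulfuration list, which takes serine into cysteine, had the highest median of the 5 lists. All 5 tested genes of 7 had a log2 fold change above 0, beside 51.4% of all named genes, with a median of 0.58 beside 0.011. Leaving out vehicle replicate 2 gave a median of 0.34 and leaving out vehicle replicate 1 gave 0.98. Both AP-treated mice lay above in 3 of the 5, beside 20.1% of all named genes. Cbs, which joins serine to homocysteine, had levels of -1.36 and -2.29 with vehicle and 0.049 and -0.67 with AP, at a log2 fold change of 1.52 ± 0.44 (SE, limma adjusted p = 0.800). Cth, which releases cysteine from cystathionine, had levels of -2.51 and -0.85 with vehicle and -0.81 and 1.60 with AP, at a log2 fold change of 2.07 ± 0.99 (SE). It was 0.87 without AP replicate 2, 1.24 without vehicle replicate 1 and 3.27 without AP replicate 1. AP replicate 1 was the higher mouse for Cbs and AP replicate 2 for Cth, and for Cth AP replicate 1 barely exceeded vehicle replicate 2. Mat2a, which makes S-adenosylmethionine, had levels of 5.60 and 5.13 with vehicle and 5.69 and 6.19 with AP, which gave 0.58, or 0.34 without vehicle replicate 2 and 0.33 without AP replicate 2. Ahcy overlapped at 0.54, which was 0.084 without AP replicate 1 and 0.10 without vehicle replicate 2, and Mat1a and Bhmt were not well above background.

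The genes nearest to an enzyme in pattern were ranked by Euclidean distance between centred levels over the 4 arrays, among 12787 other genes. Nearest to Psat1 were Slc7a1, a cationic amino acid transporter (distance 0.339), Aldh18a1, an enzyme of proline synthesis (0.387), and the nuclear RNA Neat1 (0.471). Slc7a1 had levels of -0.17 and 0.91 with vehicle and 0.41 and 3.15 with AP, the same order of mice as Psat1. Nearest to Mthfd2 were Fjx1 (0.513), the receptor kinase Grk4 (0.610) and the retinol dehydrogenase Dhrs9 (0.721), and nearest to Aldh1l2 were the kinase Dyrk2 (0.0651), the demethylase-family gene Jmjd1c (0.0933) and the homeobox gene Hmbox1 (0.110). With 4 arrays these distances are descriptions.

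Markers of other cells moved between the same mice. In the macrophage list 6 of 8 genes were tested (Cd163 was not well above background and Cd68 had no matched probe), and their summed signal was 31.0 and 38.8 with vehicle and 22.5 and 24.1 with AP, in multiples of the 75th percentile. The probes of Itgam and Csf1r were the brightest, with nearly the same mean. The groups did not overlap in this Itgam probe, at 4.21 and 3.82 with vehicle and 2.85 and 3.42 with AP. Of the other Itgam probes, A_55_P1977926 overlapped, at a log2 fold change of -0.14, and A_55_P1977929 lay below with AP, at -0.61. The groups overlapped in the other 5 genes, which were highest in vehicle replicate 2. The median centred level of the list also overlapped, at -0.26 and 0.60 with vehicle and -0.032 and -0.39 with AP. In the lymphocyte and antigen presentation list 4 of 8 were tested (Cd3g, Cd79a and Ms4a1 were among those that failed the filter on dim probes), with a summed signal of 27.6 and 92.2 with vehicle and 33.3 and 31.1 with AP and the H2-Ab1 probe the brightest. In the muscle list 8 of 8 were tested and the Myh4 probe was the brightest, with levels of 3.84 and 7.83 with vehicle and 7.58 and 6.63 with AP.

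Of the fat lists, 8 of 8 brown adipocyte markers summed to 5457 and 3355 with vehicle and 4158 and 4930 with AP, with the Cidea probe the brightest, and 6 of 6 general adipocyte markers to 3147 and 2246 with vehicle and 3024 and 3025 with AP, with the Fabp4 probe the brightest. Vehicle replicate 2 was the lowest in both sums. In the white adipose list 5 of 6 were tested (Wt1 was not well above background), with sums of 48.5 and 55.7 with vehicle and 35.5 and 39.0 with AP and the Retn probe the brightest. The 4 erythroid markers summed to 803 and 480 with vehicle and 392 and 535 with AP, led by Hba-a1, and the 4 endothelial markers to 33.7 and 37.5 with vehicle and 35.2 and 32.4 with AP, led by Kdr. Of the dividing cell markers 2 of 6 were tested (Top2a, Cdk1, Ccna2 and Aurkb failed the filter on dim probes), and they summed to 0.329 and 1.60 with vehicle and 0.237 and 0.182 with AP, led by Mki67. The Mki67 levels overlapped, at -2.69 and 0.50 with vehicle and -2.58 and -2.63 with AP. The other gene, Ccnb1, was above background on both vehicle arrays and on 0 AP arrays, so it passed the filter only through the vehicle group and its difference is no result. The part of these other cells in the enzyme values was not tested.

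**Figure D4:**
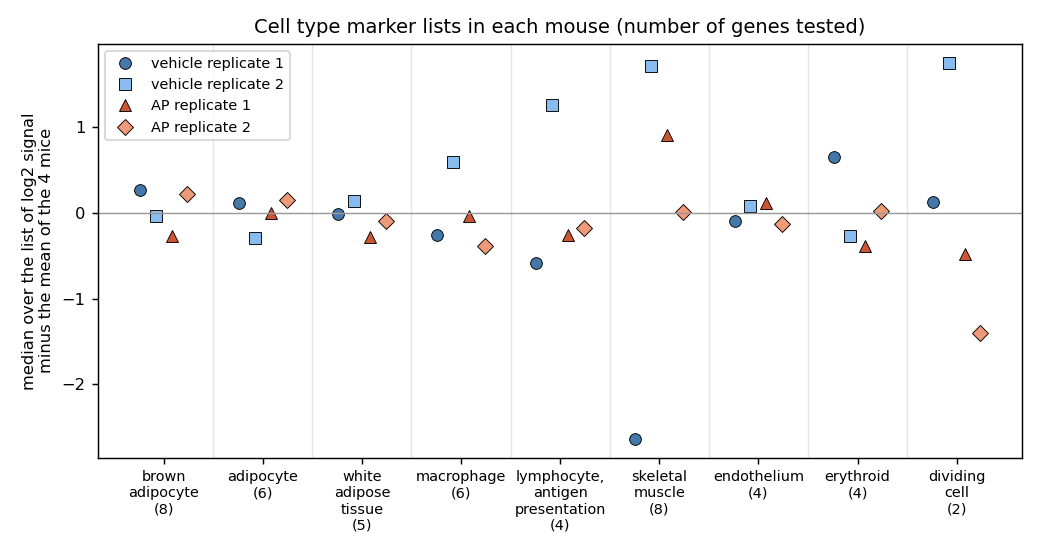
Median over each marker list of the log2 signal minus the gene's mean over the 4 mice (y axis), with 1 symbol per mouse and the number of tested genes in brackets. Vehicle replicate 1 is the lowest and vehicle replicate 2 the highest mouse in skeletal muscle, and vehicle replicate 2 is also the highest in the lymphocyte list.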

How the data were processed

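Total RNA from BAT of 4 Tg mice was hybridised by the authors to 1-colour (Cy3) Agilent mouse arrays on 1 slide with 1 scan, and the scanner text was made with Agilent Feature Extraction 10.7.1.1, per the file headers. The deposited values used are processed signal intensity per spot, background-subtracted by the scanner software. The authors also deposited a table of log2 values for 29061 probes with a value on all arrays; array differences in it matched those of the scanner intensity (lowest r 0.99855), and its column medians were -0.28, -0.16, -0.44 and -0.29 (vehicle replicates 1 and 2, AP replicates 1 and 2), and the value on which each probe is centred is not stated.

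Control spots and flagged outliers were removed, spots of a probe averaged, and log2 intensity set relative to each array's 75th percentile. Probes well above background on both arrays of at least 1 group were kept (24973). Probes were named by accession through RefSeq gene names (26570 probes with 1 symbol, 0 with several), and a gene was represented by its probe with the highest mean signal. Other tested probes are given beside it for the enzymes, and for list genes only where stated. AP was compared with vehicle by limma 3.58.1 in R 4.3.3 over all kept probes, with Benjamini-Hochberg adjustment, and the fit was tested on simulated data. With 4 arrays, their number limits the precision. Vehicle replicates 1 and 2 were at position 1 of slide columns 1 and 2, and AP replicates 1 and 2 at positions 3 and 4 of column 1. Position within a column and treatment cannot be told apart, and vehicle replicate 2 was alone in its column.

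Named genes were all 10 enzymes, Trib3, Ddit3 and Atf4, up to 4 genes with the smallest p in each pathway list, list genes that failed the filter, the 3 genes nearest to Psat1, Mthfd2 and Aldh1l2, and the brightest gene of each marker list. Ucp1, Adrb3, Elovl3, Csf1r, Ccnb1, Sfxn1, Slc46a1 and Mthfd2l were named after their values were seen. Some list genes are counted but not reported by name here. The enzymes and lists were chosen with earlier results of these data known. Alternatives were normexp background correction (offset 50, on the median spot signal), the authors' log2 table, quantile or median scaling, a stricter filter on dim probes or none, a trended variance, a replicate block, omission of each mouse, the mean over a gene's probes and the methods' t-test. Crossed replicate numbers were added after seeing the data.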

Additional observations from a re-analysis of the deposited data

How the results depend on the processing

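No probe passed an adjusted p of 0.05 in the limma fit or in any of the 15 alternatives. Unadjusted p below 0.05 was reached by 1515 probes, 2610 without the filter on dim probes, 1003 to 2178 with a mouse left out (lowest without AP replicate 1, highest without vehicle replicate 1), and 1226 with the replicate block. In the block fit Psat1 and Mthfd2 were below 0.05 unadjusted and Aldh1l2 was not, beside 1226 of all 24973 probes. No enzyme was below 0.05 unadjusted with normexp background correction, a trended variance or the methods' t-test, beside 1589, 1485 and 1478 probes. The same held without the filter and in the authors' table, beside 2610 and 1827 probes. The values did not pair same-numbered mice, with a correlation of -0.13 between their deviations. Crossed numbers gave 0 adjusted calls and 1566 unadjusted, with 0 of the enzymes among them. Of the unadjusted calls 54.3% were higher with AP, against 69.1% with median scaling and 24.5% in the authors' table, where the median of all probes was -0.17 in place of -0.012.

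The count of enzymes with both AP-treated mice above was 2, and 1 when probes had to be above background on all arrays, which drops Aldh1l2. It was 2 to 6 of the 9 with a mouse left out, where 32.7% to 42.1% of all named genes lay above. A lone mouse makes separation easier. The pathway lists gave 12 to 20 above in the same fits, in place of 9. Of the pathway genes in the authors' table, 6 lay above and 11 below, where 11.7% and 29.7% of named genes did, and with median scaling 11 and 3, where 24.8% and 11.3% did. Psph reversed to -0.064 in the authors' table, in which the log2 fold change of each of the 9 enzymes was lower by the same amount. With a mouse left out the log2 fold change was -0.13 to 1.41 for Phgdh, -0.46 to 0.66 for Psph, -0.13 to 0.59 for Shmt2, -0.51 to 0.30 for Shmt1 and -0.22 to 0.77 for Aldh1l1, and it kept its sign for Psat1, Mthfd2, Aldh1l2 and Mthfd1. The mitochondrial minus cytosolic change was 0.36 to 1.55. Slide and scan as a block were not run, because there was 1 of each. Limits are the 2 mice a group, the dim Aldh1l2 probe and Mthfd1l, which was fitted only without the filter.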
